A study of Oryza sativa with 8 samples.

Results

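Stems of a rice line susceptible to the yellow stem borer, SM, and of a tolerant line, SM92, were compared for 10 genes of gibberellin turnover and signalling. They were picked as a list of locus identifiers, with earlier results of these data known: GA20ox1, GA20ox2, GA20ox3, GA3ox2, GA2ox1, GA2ox3, EUI, GID1, GID2 and SLR1. All 10 were present among the 55986 gene models of both deposited count tables. The borer is a moth that attacks rice by tunnelling through the stem as a larva. Field-grown plants received larvae on their tillers at booting, when the young panicle is still wrapped in the leaf sheath. About 2 cm of stem around the attacked zone was cut 72 hours later, and uninfested plants of both lines were cut at the same time. The 8 samples are 2 uninfested and 2 infested samples of SM and as many of SM92. The sources used here do not say how many plants went into a sample or whether samples came from separate plants, so p-values measure only the spread between these libraries.

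Gibberellins are growth hormones that drive stem elongation in grasses. GA20ox enzymes oxidise inactive precursors, GA3ox enzymes make the bioactive hormone from their products, and GA2ox enzymes and the cytochrome P450 EUI inactivate gibberellins. The hormone binds the soluble receptor GID1, which then holds the DELLA repressor SLR1, and the F-box protein GID2 marks SLR1 for degradation. GA20ox2 is the SD1 gene, whose loss gives the semidwarf stature of many modern rice varieties, and loss of EUI lengthens the uppermost internode at heading.

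The labels tie each count column to a line, through the table that each sample's description names, but to neither infestation nor replicate. Each column is therefore a library of SM (A to D) or of SM92 (E to H), the letters following the columns of the tables. The only comparison made was SM92 against SM, with 4 libraries a line, of which 2 are infested and 2 uninfested without it being known which. The response to the larvae was not analysed here. The libraries held between 50540724 and 57603629 fragments assigned to genes. Levels are given as CPM, fragments relative to library size, scaled by TMM (trimmed mean of M-values, a correction for library composition).

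Some libraries stood apart over the genes as a whole. In 3 pairs, C with D, E with F and G with H, the median gene differed by 1.96, 1.52 and 1.36 times the sampling variance. The other pairs within a line differed by 24.3 to 96.9 times. The 4 loci listed as secondary-wall genes of stems were read in all libraries. Their sum was 970.6 to 996.6 CPM in SM libraries A, C and D, 282.9 CPM in SM library B, and 88.8 to 257.0 CPM in SM92. All 4 loci were lower in SM92 at an adjusted p under 0.05 (edgeR), 1 of them also without libraries C and D. With the close pairs counted once their adjusted p was 0.0598 to 0.161 (edgeR). The 3 loci listed as panicle and floret genes summed to 64.4 CPM in library C and 59.7 CPM in library D. They were at or near 0 elsewhere, with sums from 0.185 to 0.456 CPM. The 2 loci listed for inflorescence phase and leaf sheath were both higher in SM92, with sums of 1172 to 1311 CPM against 373.1 to 583.4 CPM, and 1 of them passed without C and D and 1 with close pairs counted once. The part of these markers in the results was not tested. Results are therefore also given without C and D, and with each close pair summed and counted as 1 library, which leaves 3 libraries of SM and 2 of SM92. Either step may leave the lines with unlike shares of infested libraries, since the infestation state of a column is not known. A change under these steps can therefore not be told apart from an effect of infestation.

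GA20ox2 was higher in SM92, while GA3ox2, GA2ox1, EUI and GID1 were lower. GA20ox3 was too sparse for the filter on low counts, so 9 of the 10 genes were tested. Of these, 1 was higher and 4 were lower at an adjusted p under 0.05 (edgeR quasi-likelihood test, Benjamini-Hochberg over all 24892 genes tested). Over all genes, 16.7% were higher and 19.7% lower, or 36.4% in all. The median log2 fold change was 0.03 for the 9 genes and 0.003 over all genes. CPM ranges of the lines did not overlap for 6 of the 9, against 40.6% of all genes tested. Without libraries C and D, 4 of the 9 genes passed, against 29.6% of all genes. With close pairs counted once, 1 of the 9 passed, against 9.41%.

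**Figure D1:**
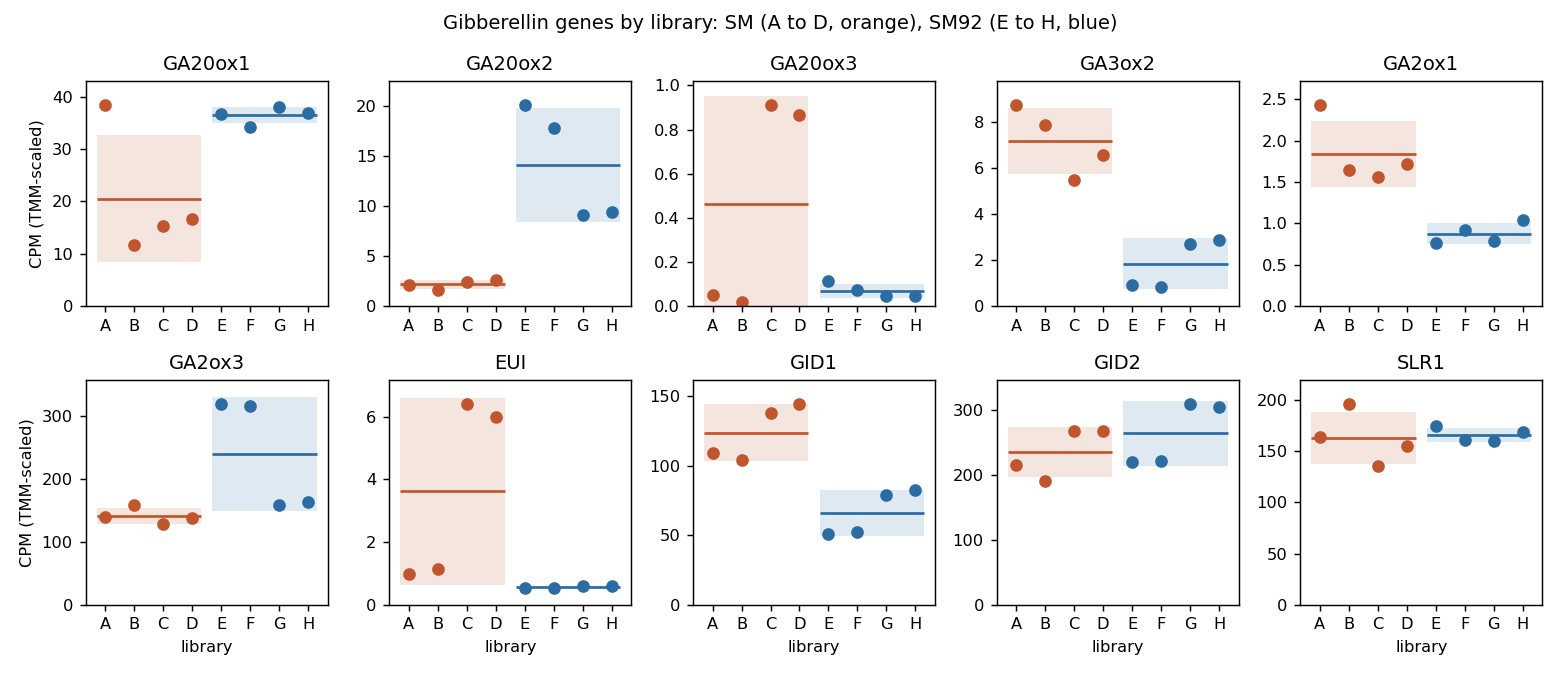
Level of each of the 10 genes in every library, in CPM on linear axes that start at 0; points are libraries, lines are means and shaded bands are 1 SD (n = 4 a line). GA20ox2 is 9.10 to 20.05 in SM92 and at most 2.65 in SM, and EUI and GA20ox3 are high in SM libraries C and D alone.

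Among the 3 tested genes of synthesis, GA20ox2 (LOC_Os01g66100) had the largest log2 fold change. It lies on chromosome 1 from 38382382 to 38385504 in the gene models of MSU release 7, as do all coordinates here. Its CPM was 2.09, 1.63, 2.37 and 2.65 in SM libraries A to D. In SM92 libraries E to H it was 20.05, 17.8, 9.10 and 9.43. Every SM92 library exceeded every SM library, and within SM92 E and F were about double G and H. The means were 2.19 ± 0.432 (SD, n = 4) in SM and 14.1 ± 5.66 (SD, n = 4) in SM92. The log2 fold change was 2.69 (SE 0.32, adjusted p = 0.000498 by edgeR), a 6.45-fold higher level in SM92. It was 2.91 without C and D (adjusted p = 0.00689) and 2.77 with close pairs counted once (adjusted p = 0.0201).

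GA3ox2 (LOC_Os01g08220, chromosome 1, 4003659 to 4004946) makes bioactive gibberellin, and it moved the other way. SM libraries A to D held 8.72, 7.84, 5.47 and 6.58 CPM. SM92 libraries E to H held 0.930, 0.821, 2.70 and 2.89 CPM. The lines did not overlap, and E and F were the lowest. SM92 differed from SM by a log2 fold change of -1.97 (SE 0.45, adjusted p = 0.0107 by edgeR), a 3.91-fold lower level. It was -2.19 without C and D (adjusted p = 0.0337). The call was lost with close pairs counted once, at -2.03 and adjusted p = 0.0891.

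GA20ox2 and GA3ox2 also stood in opposite order in the lines. Per kilobase of gene span, GA20ox2 was 0.0858 to 0.179 times GA3ox2 over the SM libraries and 1.35 to 8.95 times GA3ox2 over the SM92 libraries.

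GA20ox1 (LOC_Os03g63970, chromosome 3, 36150664 to 36152517) was the most abundant of the GA20ox genes per kilobase in every library. Its CPM was 38.4, 11.6, 15.2 and 16.6 in SM libraries A to D and 36.7, 34.3, 38.0 and 36.8 in SM92 libraries E to H. Library A stood at the level of SM92 and the other SM libraries far below it. The log2 fold change of 0.83 (SE 0.35) did not pass, with adjusted p = 0.0971 by edgeR. Of the 8 libraries left out in turn, leaving out A was the only one to bring a pass: the log2 fold change was then 1.33 with adjusted p = 0.000736. Without C and D it was 0.54 (adjusted p = 0.394), and with close pairs counted once 0.74 (adjusted p = 0.432). DESeq2 and limma-voom gave adjusted p = 0.0452 and 0.0433 with all libraries.

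GA20ox3 (LOC_Os07g07420, chromosome 7, 3702287 to 3705030) was nearly silent. Libraries A to D held 3, 1, 55 and 49 fragments, and libraries E to H held 6, 4, 2 and 2. SM libraries C and D were the only ones above 6 fragments, at 0.911 and 0.864 CPM, and these are the libraries with panicle marker reads. Without the filter on low counts, its log2 fold change was -2.67 (adjusted p = 0.117 by edgeR). Of the summed level of the GA20ox genes per kilobase, GA20ox1 held 91.4 ± 3.99% in SM and 81.5 ± 6.52% in SM92 (SD, n = 4 each). GA20ox2 held 3.13 to 8.38% over the SM libraries and 12.4 to 24.5% over the SM92 libraries. That sum was 6.81 to 21.4 CPM per kilobase in SM and 22.9 to 26.3 in SM92.

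The inactivating enzymes did not move as a group. EUI (LOC_Os05g40384, chromosome 5, 23728502 to 23738405) was lower in SM92, but the size of the difference rested on libraries C and D. Its CPM was 0.967, 1.13, 6.41 and 5.98 in SM libraries A to D. In SM92 libraries E to H it was 0.532, 0.522, 0.607 and 0.599. The SM92 libraries were nearly alike, SM libraries A and B lay above them, and C and D far above. The log2 fold change was -2.68 (SE 0.67, adjusted p = 0.0159 by edgeR). Without C and D it was -0.90 (SE 0.23, adjusted p = 0.0311), and with close pairs counted once it was -2.29 (adjusted p = 0.219). limma-voom gave adjusted p = 0.0769. In bulk tissue, more cells of a type and more RNA per cell cannot be told apart.

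**Figure D2:**
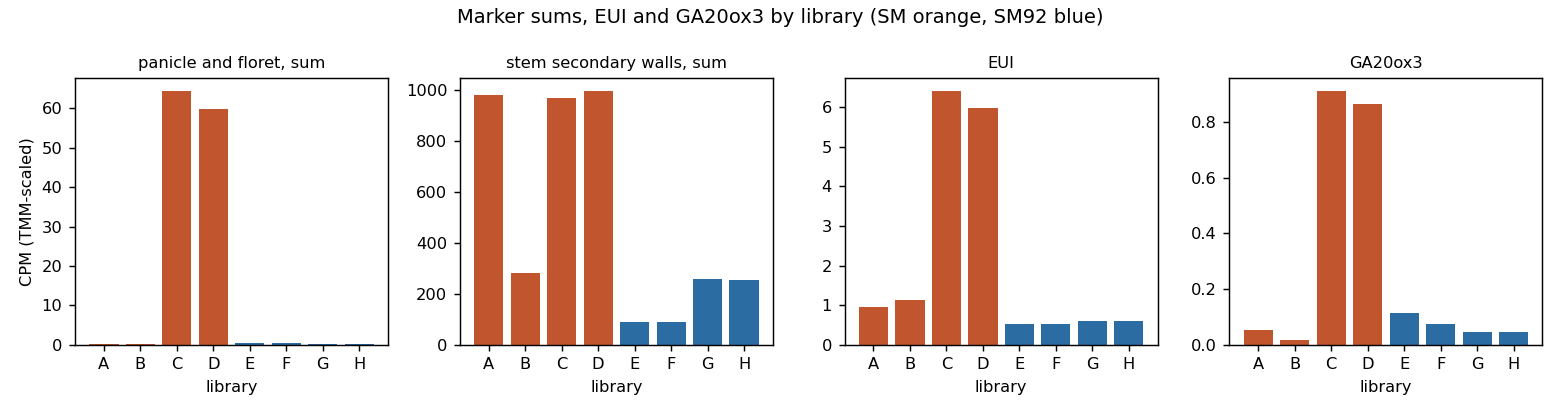
Summed CPM of the 3 panicle and floret loci and of the 4 stem secondary-wall loci, and CPM of EUI and GA20ox3, in each library (bars from 0). Libraries C and D are the only ones with panicle marker sums above 1 CPM and have the highest EUI and GA20ox3.

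GA2ox1 (LOC_Os05g06670, chromosome 5, 3459616 to 3465991) was weakly read, at 2.43, 1.65, 1.56 and 1.71 CPM in SM libraries A to D and 0.759, 0.914, 0.786 and 1.04 CPM in SM92 libraries E to H. The lines did not overlap, with a log2 fold change of -1.07 (SE 0.23, adjusted p = 0.00762 by edgeR) and -1.22 without C and D (adjusted p = 0.0179), but with close pairs counted once the value was -1.11 and the call was lost (adjusted p = 0.144). The gene shares 2643 bases with LOC_Os05g06680 on the opposite strand. That gene held 4.36 to 7.10 CPM and did not pass the test (log2 fold change 0.39, adjusted p = 0.0637). Reads were assigned by strand.

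GA2ox3 (LOC_Os01g55240, chromosome 1, 31795105 to 31797643) exceeded the other inactivation genes among the 10, with at least 98.3% of the summed level of GA2ox1, GA2ox3 and EUI per kilobase in each library. SM libraries A to D held 139.9, 158.7, 128.5 and 137.4 CPM. SM92 libraries E to H held 320.0, 315.9, 159.4 and 163.0 CPM. E and F were about double all others, while G and H lay just above the highest SM library. The log2 fold change of 0.76 (SE 0.26) narrowly missed the threshold, with adjusted p = 0.0524 by edgeR. It passed with DESeq2 (adjusted p = 0.0176), with RLE size factors in edgeR (adjusted p = 0.0483), and without library G or H (adjusted p = 0.0278 and 0.0309). It did not pass without E or F (log2 fold change 0.60 and 0.61, adjusted p = 0.127 each) or without C and D (0.68, adjusted p = 0.217). With close pairs counted once the log2 fold change was 0.75 (adjusted p = 0.216). Nor did GA2ox3 pass with limma-voom (adjusted p = 0.0742) or the other scalings and filters in edgeR (adjusted p = 0.0509 to 0.145). Without A, B, C or D in turn the adjusted p was 0.0681 to 0.12 by edgeR.

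Of the perception genes, the receptor differed between the lines and its partners did not pass the test. GID1 (LOC_Os05g33730, chromosome 5, 19868419 to 19871283) held 109.3, 104.0, 137.9 and 144.7 CPM in SM libraries A to D. It held 50.9, 52.5, 78.8 and 82.4 CPM in SM92 libraries E to H. All SM92 libraries lay below all SM libraries. Their log2 fold change was -0.91 (SE 0.20, adjusted p = 0.01 by edgeR), and the level in SM92 was 1.87-fold lower. The call did not hold without C and D (-0.70, adjusted p = 0.0737) or with close pairs counted once (-0.83, adjusted p = 0.134).

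GID2 (LOC_Os02g36974, chromosome 2, 22333281 to 22337713) held 215.8, 191.2, 267.7 and 268.0 CPM in SM libraries A to D and 220.6, 221.1, 309.8 and 304.9 CPM in SM92 libraries E to H. The lines overlapped, and in each line 1 close pair was the highest. Its log2 fold change was 0.16 with a 95% interval from -0.25 to 0.57 (adjusted p = 0.506 by edgeR). SLR1 (LOC_Os03g49990, chromosome 3, 28512625 to 28515179), the DELLA repressor, held 163.9, 196.1, 135.4 and 154.7 CPM in SM libraries A to D. It held 174.1, 160.5, 160.0 and 168.2 CPM in SM92 libraries E to H, all within the range of SM. Its log2 fold change was 0.03 with a 95% interval from -0.26 to 0.32 (adjusted p = 0.883 by edgeR). The sign of both differences turned when library totals alone set the scale, and that of SLR1 also without C and D and with close pairs counted once.

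**Figure D3:**
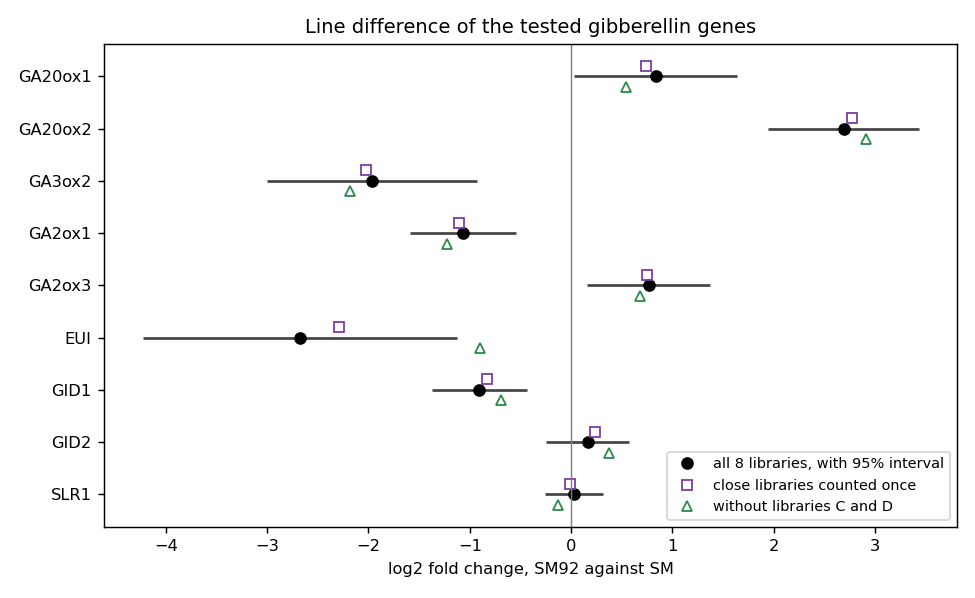
Log2 fold change of SM92 against SM for the 9 tested genes. Black points and bars are the fit over all 8 libraries with its 95% interval. Squares are the fit with close pairs counted once, and triangles the fit without libraries C and D. GA20ox2 lies between 2.69 and 2.91 in all of these fits, and EUI moves from -2.68 to -0.90 without C and D.

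Counts cover whole gene models, introns included, so levels were compared between genes per kilobase of gene span. Spans ran from 1288 bases for GA3ox2 to 9904 for EUI, and the order depends on this division. By CPM alone over all libraries, GID2 ranked 1 and GA2ox3 ranked 2. How reads were spread over exons and introns was not tested. In SM, SLR1 was first at 63.6 ± 9.91 CPM per kilobase, followed by GA2ox3 at 55.6 ± 4.99, GID2 at 53.2 ± 8.68 and GID1 at 43.3 ± 7.08 (SD, n = 4). The ranges of these neighbours overlapped. GA20ox1 followed at 11.0 ± 6.54, below the whole range of GID1, and then GA3ox2 at 5.55 ± 1.11, whose range overlapped that of GA20ox1. Clear of GA3ox2, GA20ox2 at 0.700 ± 0.138, EUI at 0.366 ± 0.301, GA2ox1 at 0.288 ± 0.0626 and GA20ox3 at 0.168 ± 0.180 overlapped in turn.

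In SM92, GA2ox3 was first at 94.4 ± 35.7 CPM per kilobase, and its range overlapped that of SLR1 at 64.8 ± 2.64, which overlapped GID2 at 59.6 ± 11.3. GID1 at 23.1 ± 5.85 and GA20ox1 at 19.7 ± 0.851 overlapped each other and were clear of GID2. Below them GA20ox2 at 4.51 ± 1.81, GA3ox2 at 1.42 ± 0.861, GA2ox1 at 0.137 ± 0.0205, EUI at 0.0570 ± 0.00445 and GA20ox3 at 0.0253 ± 0.0120 followed without overlap. Per kilobase, GID1 was thus well above GA20ox1 in SM, while in SM92 it exceeded GA20ox1 in 2 of 4 libraries. In CPM not divided by span, GID1 lay above GA20ox1 in every SM92 library, at 50.9 to 82.4 against 34.3 to 38.0.

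Within a line the genes also varied to different degrees. SLR1 varied by 1.45 times from the lowest to the highest SM library and by 1.09 times in SM92. EUI varied by 6.63 times in SM, a log2 range wider than that of 94.2% of tested genes, and by 1.16 times in SM92. GA3ox2 showed the reverse, with 1.60 times in SM and 3.52 times in SM92, wider there than 88.8% of tested genes. GA20ox2 varied by 1.62 times in SM and 2.20 times in SM92. For GA3ox2 and GA20ox2 the spread in SM92 lay mostly between the close pairs, E with F against G with H. Each line mixes infested and uninfested libraries, and the part of infestation in these ranges was not tested.

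A wider list of 18 further loci, assigned to the gibberellin pathway from general knowledge since the tables carry no gene names, was set beside these genes. Of the 17 tested, 5 were higher and 3 lower in SM92, and 9 did not pass, with a median log2 fold change of -0.04. These 8 of 17 stand against 36.4% of all genes (16.7% higher and 19.7% lower). Without C and D, 7 of the 17 passed, against 29.6% of all genes, and with close pairs counted once 1 passed, against 9.41%. The list mixes loci assigned to synthesis, inactivation and signalling, so these counts and the median pool unlike roles. Its loci are named by identifier only. LOC_Os05g11810 stood out: it held 20.3, 25.4, 31.4 and 33.3 CPM in SM libraries A to D and 215.3, 210.2, 163.8 and 163.3 CPM in SM92 libraries E to H. Its log2 fold change was 2.77 (SE 0.20, adjusted p = 3.7e-05 by edgeR), and it passed with close pairs counted once (adjusted p = 0.0072).

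LOC_Os04g44150 was lower in SM92, at 0.488 to 0.672 CPM against 1.26 to 12.5 CPM in SM (log2 fold change -3.25, SE 0.74, adjusted p = 0.0105 by edgeR). LOC_Os01g22910 was also lower, at log2 fold change -2.47 (adjusted p = 0.00811), on at most 36 fragments in a library. LOC_Os07g01340 was high in the same libraries as EUI, with 7.27 and 7.88 CPM in C and D, 1.00 and 1.08 CPM in A and B, and 0.377 to 1.06 CPM in SM92. Its log2 fold change of -2.63 (adjusted p = 0.0343) became -0.59 without C and D (adjusted p = 0.408). LOC_Os02g41954 was higher in SM92, at 452.2 to 877.7 CPM against 170.0 to 291.2 CPM (log2 fold change 1.46, adjusted p = 0.00555). LOC_Os05g34854 was higher at log2 fold change 1.38 (adjusted p = 0.0222), but did not pass without C and D (0.95, adjusted p = 0.116). With close pairs counted once, these 5 loci had adjusted p from 0.0630 to 0.291.

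**Figure D4:**
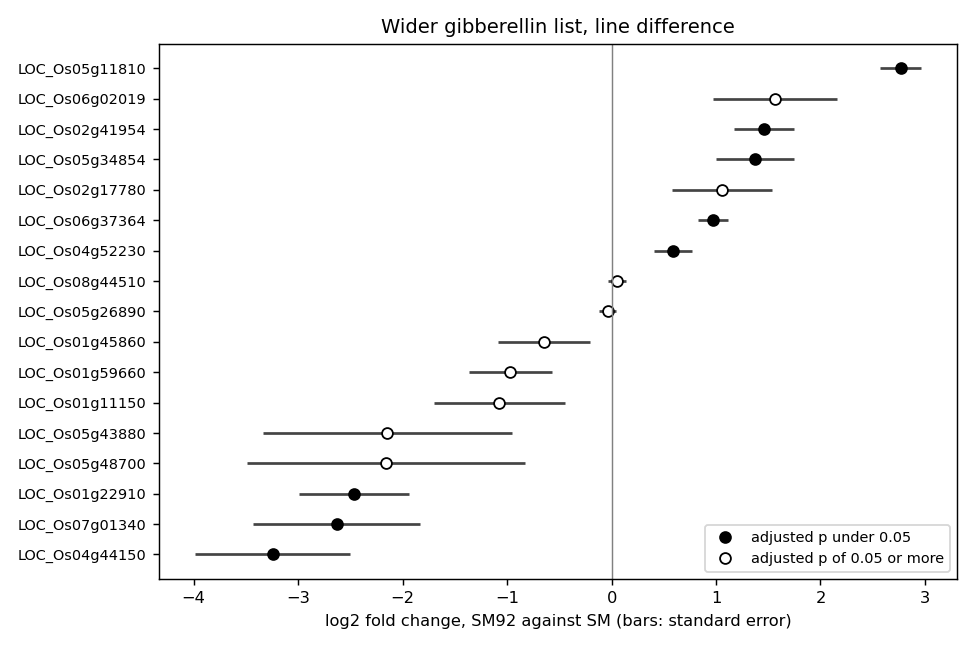
Log2 fold change of SM92 against SM for the 17 tested loci of the wider list, with bars of 1 standard error; filled points passed an adjusted p of 0.05 over all genes tested. LOC_Os05g11810 is highest at 2.77 and LOC_Os04g44150 lowest at -3.25.

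The gene most like each tested gene in profile was found among the other 25 tested gibberellin loci, by the Euclidean distance between log2 CPM values centred on their mean over the 8 libraries. GA20ox2 was closest to LOC_Os05g11810 (distance 0.852), and EUI to LOC_Os07g01340 (1.58). GA2ox1 was closest to GID1 (0.998). SLR1, whose level hardly moved, was closest to LOC_Os08g44510 (0.369), and GID2 to LOC_Os05g26890 (0.599). GA3ox2 had the least close neighbour, LOC_Os01g22910 (1.77). These distances follow the same 8 libraries and are a description only.

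The gene models beside the 10 genes were read for comparison, 2 on each side. Of these 40 neighbours, 21 were tested and 7 passed, or 33.3%, close to the share of all genes tested. Next to GA20ox2, LOC_Os01g66110 did not pass (log2 fold change -0.10, adjusted p = 0.550), while LOC_Os01g66120 was higher in SM92 (1.19, adjusted p = 0.00257). On the low-coordinate side of GA3ox2, LOC_Os01g08200 did not pass (-0.24, adjusted p = 0.0581), and LOC_Os01g08190 was lower in SM92 (-2.47, adjusted p = 2.5e-05 by edgeR).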

How the data were processed

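RNA depleted of ribosomal RNA was sequenced as reversely stranded libraries, per the labels' protocols. The authors' deposited tables hold raw fragment counts per gene model from featureCounts 2.0.0 with MSU release 7, strand option 2, gene features with introns and both ends aligned, per the file headers. STAR and Trim Galore are named in the submitters' processing notes without versions. The other column used, the deposited gene length in bases, is the authors' annotation value. All 8 count columns were tied to a line only, so the planned infestation contrasts and the replicate block were not run.

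Counts were tested with edgeR 4.0.16 (glmQLFit and glmQLFTest, TMM, filterByExpr with a minimum count of 10) in R 4.3.3, adjusted by Benjamini-Hochberg over all genes. The standard error is the absolute log2 fold change over the root of F. The fit was also run on simulated counts of independent libraries. These held no close pairs and no infestation groups, so that run does not cover these features of the data. Alternatives used DESeq2 1.42.0, limma 3.58.1 and exact permutation with SciPy 1.17.1. Close pairs were those under 2 times the sampling variance, over genes with at least 400 fragments in all.

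All 10 members are named, with up to 6 called loci of the wider list by absolute log2 fold change. The members and lists were chosen with earlier results of these data known. None of the identifiers matched the RefSeq table, and no sequence was used here.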

Additional observations from a re-analysis of the deposited data

How the results depend on the processing

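Line differences were recomputed with other scalings, filters, tools and libraries. No paired analysis was possible because a column of counts shows neither its replicate number nor its infestation state. The alternatives that count close pairs once or leave out libraries C and D were chosen after seeing the data. Counting close pairs once lowered the genes called from 9067 to 2591, those higher in SM92 from 4152 to 1206 and those lower from 4915 to 1385. It has fewer libraries, and it ended the calls of GA3ox2, GA2ox1, EUI and GID1. Leaving out 1 library at a time gave 7366 to 9728 called genes. Leaving out C, D, E, F, G or H kept the other library of its close pair, so these fits did not test the closeness of the pairs. GA20ox2 kept its direction and passed in all alternatives run, with log2 fold changes from 2.48 to 2.91. In the permutation test this pass was unadjusted and took close pairs as separate libraries, so it does not cover their closeness.

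With library totals alone the median of all genes was -0.16 (log2), and 32.1% of called genes were higher in SM92 against 45.8% with TMM. GID2 then stood at -0.015 and SLR1 at -0.14. SLR1 also turned without libraries C and D (-0.125) and with close pairs counted once (-0.012). Leaving out 1 library at a time moved it from -0.053 to 0.13. None of these SLR1 and GID2 values passed the test, and the cause was not tested.

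In the exact two-sided permutation test on mean log2 CPM, the 6 genes whose lines did not overlap gave p = 0.0286 unadjusted, the smallest p that 4 against 4 libraries allow. The order of levels moved for 7 of the 10 genes when CPM was not divided by gene span. Depth limits GA20ox3, at 1 to 6 fragments in 6 libraries.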
